A study of Mus musculus with 7 samples.

Results

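Osteoclast genes are the genes by which the bone-resorbing cell senses its growth signals, fuses, acidifies the bone surface and digests it. The 9 genes followed here, Tnfrsf11a, Oscar, Nfatc1, Dcstamp, Ocstamp, Atp6v0d2, Ctsk, Acp5 and Calcr, were taken by symbol from the 49315 genes of the count table. All 9 were matched by Ensembl identifier in GENCODE M21, and 8 had enough reads to be tested among 17920 genes.

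Osteoclasts form from monocyte-lineage precursors when the ligand RANKL, made by osteoblast-lineage and stromal cells, binds the receptor RANK, while M-CSF keeps the precursors alive. Signals from RANK and from immunoreceptor-like co-receptors switch on the transcription factor NFATc1. The precursors then fuse into multinucleated cells that pump protons and secrete acid proteases against bone, so in whole marrow their transcripts come from a rare cell type and from the macrophages and precursors that share some of these genes.

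RNA with poly(A) tails was sequenced from bone marrow of chow-fed mice whose hindlimb had been made ischemic by surgery that cuts the blood flow to the leg. The 4 KO libraries carried the genotype miR-181a2b2-/-, a deletion of the microRNA cluster encoding miR-181a and miR-181b, and the 3 flox libraries carried miR-181a2b2flox/flox, intact alleles flanked by loxP sites, called WT in the titles. Diet and surgery were shared by both groups, and the labels give no age, sex, strain or Cre driver. The labels do not state that each library is a different animal; p-values are therefore about the spread of these samples, which may be technical.

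Total counts ran from 43110251 to 48320848 in KO and from 46151300 to 51688514 in flox libraries. On the first principal component, with 34.7% of the variance, the KO libraries scored 16.6 to 23.2, against -58.7 for flox 1, -14.2 for flox 2 and -5.48 for flox 3. Flox 1 stands apart, and results that it decides are also given without it. The microRNA genes of the deleted cluster, Mir181a-2 and Mir181b-2, had 0 counts in all 7 libraries after poly(A) selection, so the counts do not check the genotype. One label names white adipose tissue as the RNA source where all others name bone marrow. Adipoq, the fat cell hormone, had 4.22 to 11.8 CPM (counts scaled to a common library size) in KO and 5.64 to 19.7 CPM in flox libraries. The B cell gene Cd79a had 137 to 169 CPM in KO and 11.8 to 126 CPM in flox libraries. In flox 1 Adipoq was the higher of the pair, at 19.7 CPM against 11.8 CPM for Cd79a. Adipoq is also listed below with the reticular stroma of marrow, so these values do not settle the tissue.

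The mature microRNAs of the deleted cluster are given because their shared seed, bases 2 to 8 in capitals, defines what a target site in an osteoclast gene would look like. They are written 5′ to 3′ from RefSeq on GRCm38.p6, at chr2:38852741-38852763 and chr2:38853845-38853868, both on the plus strand.
mmu-miR-181a-5p: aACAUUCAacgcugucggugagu
mmu-miR-181b-5p: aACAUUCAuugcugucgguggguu
The matching site in a transcript is TGAATGT. None of the 9 osteoclast genes held it in its longest annotated 3′ UTR (0 of 9, with UTRs of 293 to 3115 bases), against 2647 of 14314 tested genes with a 3′ UTR, or 18.5%, whose median UTR was 1301 bases. Ctsk, with a UTR of 440 bases, and Acp5, with 293 bases, have short UTRs in which few sites could lie. The absence of these letters says nothing of other site types.

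Upstream sequence is shown for Ctsk and Acp5 because the protease and the phosphatase, both classical resorption markers, gave different values in the comparison. RefSeq promoter windows on GRCm38.p6, from 250 bases before to 50 bases after a start, matched 5 of the 9 genes, with 8 windows in all; Atp6v0d2, Dcstamp, Nfatc1 and Ocstamp were not matched. Capitals mark matches on either strand to AP-1 (TGANTCA), MITF/TFE (TCANGTG) or PU.1 (GGAAGT), families known to act on osteoclast genes; the shorter NFAT core GGAAA was counted but left in lower case. The Ctsk window is chr3:95498960-95499259 on the plus strand, and the Acp5 window, 1 of 3 for this gene, is chr9:22130549-22130848 on the minus strand.
Ctsk: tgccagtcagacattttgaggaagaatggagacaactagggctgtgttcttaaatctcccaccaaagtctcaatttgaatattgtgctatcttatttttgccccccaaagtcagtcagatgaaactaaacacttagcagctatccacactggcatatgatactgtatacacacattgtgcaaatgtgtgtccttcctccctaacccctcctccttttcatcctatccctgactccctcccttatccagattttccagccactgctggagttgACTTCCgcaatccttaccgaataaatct
Acp5: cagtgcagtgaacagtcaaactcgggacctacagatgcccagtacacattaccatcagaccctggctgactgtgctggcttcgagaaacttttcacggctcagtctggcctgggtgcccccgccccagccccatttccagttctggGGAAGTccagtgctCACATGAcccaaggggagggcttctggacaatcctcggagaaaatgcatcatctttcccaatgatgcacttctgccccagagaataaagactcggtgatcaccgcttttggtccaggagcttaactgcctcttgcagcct
The Ctsk window held 1 PU.1 match, 22 bases after the start, 1 NFAT core and no MITF/TFE match. In the Acp5 window a PU.1 match at -104 and an MITF/TFE match at -90 lie close together, with 2 NFAT cores, but the other 2 Acp5 windows held 0 matches to AP-1, MITF/TFE or PU.1 and 1 NFAT core each. The Oscar window had 1 MITF/TFE match and 4 NFAT cores, and 1 of 2 Calcr windows had 1 MITF/TFE match. Tnfrsf11a had none of the 4 motifs, and the AP-1 motif occurred in none of the 8 windows. Among 32851 promoter windows of the same length, 7.81% held the AP-1 motif, 14.3% MITF/TFE, 23.8% PU.1 and 61.3% the NFAT core, so single matches are common and these are descriptions of letters, not of binding.

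Levels were compared first. Per kilobase of exon, Acp5 was the most abundant of the 9 genes, with 44.2 ± 6.28 CPM per kb in KO and 46.5 ± 8.84 CPM per kb in flox libraries (SD, n = 4 KO and n = 3 flox, here and below). Ctsk followed with 12.4 ± 3.82 CPM per kb in KO and 27.3 ± 7.64 CPM per kb in flox, then Nfatc1 with 11.5 ± 0.339 CPM per kb in KO and 11.4 ± 0.704 CPM per kb in flox. Atp6v0d2 (3.03 ± 0.869 CPM per kb in KO, 4.07 ± 0.726 in flox) and Tnfrsf11a (0.667 ± 0.0576 in KO, 0.777 ± 0.149 in flox) came next, ahead of Oscar, Dcstamp, Ocstamp and Calcr. The order was the same in both groups. Neighbours whose libraries overlapped were Ctsk and Nfatc1, Oscar and Dcstamp, and Dcstamp and Ocstamp in KO, but Oscar and Dcstamp alone in flox, where every Ctsk library lay above every Nfatc1 library. The 4 scarcest genes, Oscar, Dcstamp, Ocstamp and Calcr, had 0 to 39 reads per library and carry large counting error.

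**Figure D1:**
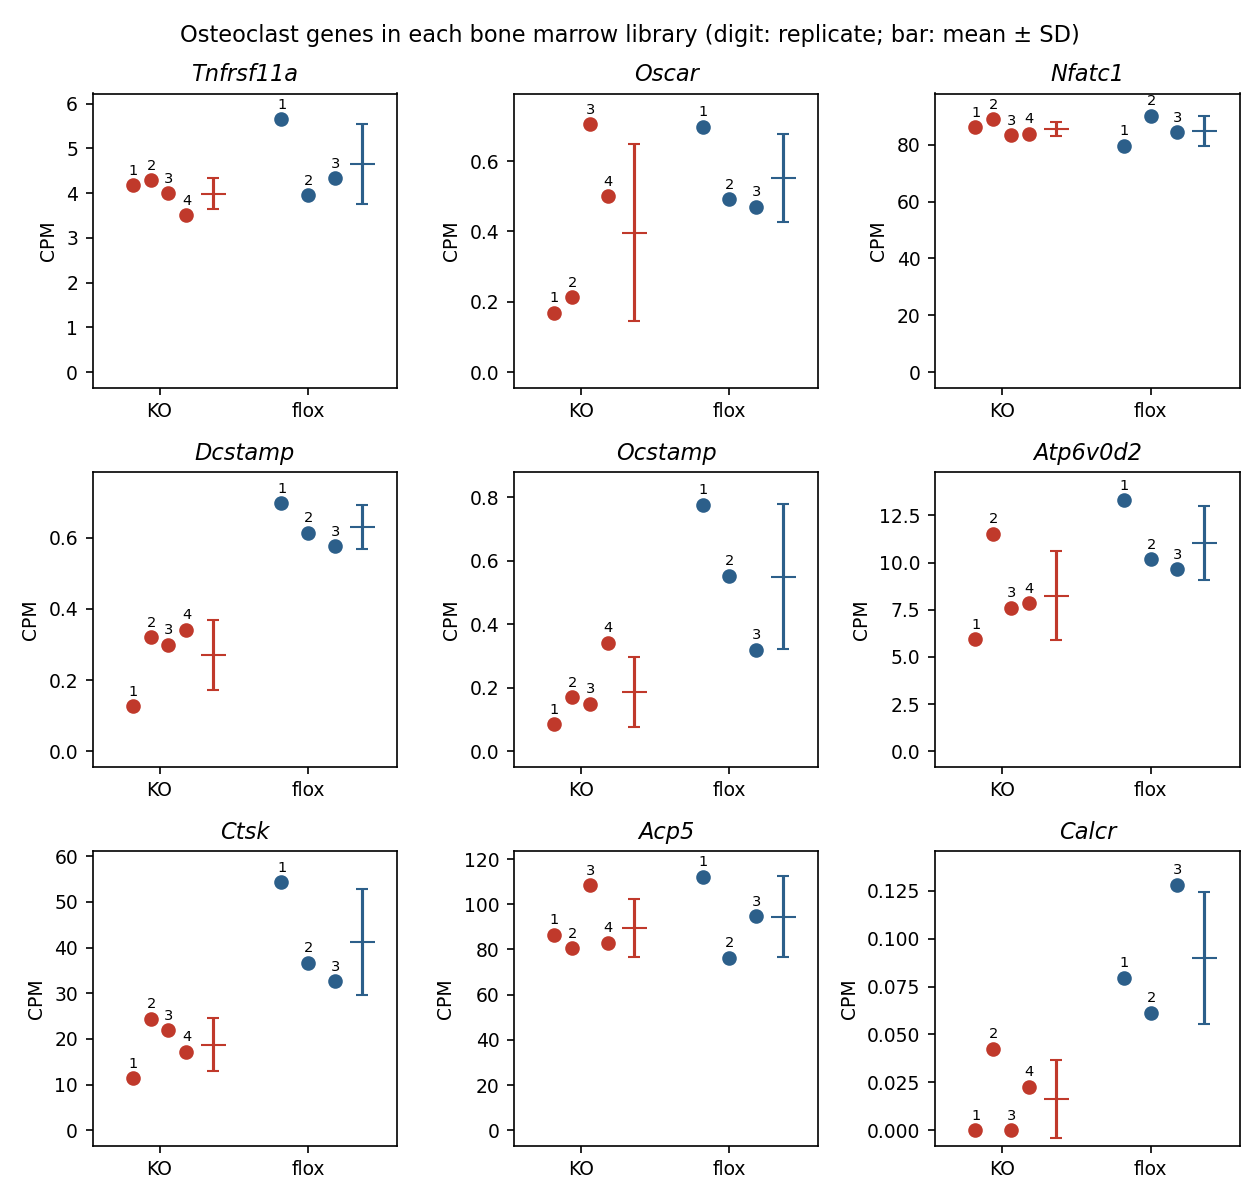
CPM of each osteoclast gene in each library, with KO left and flox right, the digit giving the replicate and the bar the mean ± SD (n = 4 KO, n = 3 flox). Ctsk, Dcstamp and Calcr show no overlap between the groups, with Ctsk at 11.3 to 24.4 CPM in KO and 32.6 to 54.4 CPM in flox; Nfatc1 and Acp5 lie at similar heights in both.

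The comparison of KO with flox asks how loss of the miR-181a2b2 cluster bears on these genes. Among the 8 tested genes, the 3 with the lowest fold changes were the protease gene Ctsk and the fusion genes Dcstamp and Ocstamp, with KO over flox ratios of mean CPM of 0.339 to 0.454, while Nfatc1 and Acp5 had nearly equal means. In bulk marrow, fewer cells expressing a gene and less of its RNA per cell cannot be told apart. None of the 8 tested genes passed the edgeR threshold (adjusted p of 0.05; lowest adjusted p = 0.220), where 0.145% of all tested genes passed (0.0112% lower and 0.134% higher in KO). At an unadjusted p under 0.05, 3 of the 8 passed, beside 14.1% of all tested genes, or 8.17% counting those lower in KO. Ocstamp, 1 of the 3, passed the filter on low counts mainly through the flox libraries, so its part in this count is no separate support. In a DESeq2 fit 1 gene passed, Ctsk, beside 2.21% of the 16516 genes given an adjusted p in that fit (0.799% lower in KO), and with limma-voom none did, beside 0.0725%.

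The receptors come first in the pathway. Tnfrsf11a (chr1:105780718-105847981 on GRCm38, plus strand), which encodes RANK, had 4.17, 4.29, 3.997 and 3.51 CPM in KO and 5.66, 3.96 and 4.34 CPM in flox libraries. The groups overlapped, and flox 1 alone lay above all others. Its log2 fold change, given throughout as KO minus flox, was -0.22 with an SE of 0.16 (95% interval -0.59 to 0.15, adjusted p = 0.606 by edgeR), and -0.059 without flox 1. Oscar (chr7:3609813-3616157, minus strand), a collagen-binding co-receptor that signals through the Fc receptor gamma chain, had 0.169, 0.213, 0.705 and 0.501 CPM in KO and 0.697, 0.492 and 0.470 CPM in flox libraries. KO 1 and KO 2 were the lowest of the 7 and KO 3 the highest, so the spread lay within KO. Oscar's log2 fold change was -0.48 with an SE of 0.46 (95% interval -1.52 to 0.55, adjusted p = 0.710 by edgeR), and it was -0.23 without KO 1, -0.26 without KO 2, -0.29 without flox 1 and -0.90 without KO 3.

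Nfatc1 (chr18:80606205-80713071, minus strand), the master transcription factor of osteoclast formation, which T cells and other marrow cells also use, had 86.2, 88.9, 83.4 and 83.8 CPM in KO and 79.7, 90.2 and 84.5 CPM in flox libraries. All KO libraries lay inside the range of the flox libraries. The log2 fold change was 0.01 with a narrow 95% interval of -0.14 to 0.16 (SE 0.07, edgeR adjusted p = 0.958). It was -0.034 without flox 1.

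Dcstamp (chr15:39745930-39760938, plus strand) and Ocstamp (chr2:165393760-165400405, minus strand) encode transmembrane proteins needed for precursors to fuse. Dcstamp had 0.126, 0.320, 0.299 and 0.341 CPM in KO (6, 15, 14 and 15 reads) and 0.697, 0.615 and 0.577 CPM in flox libraries (35, 30 and 27 reads). Every KO library lay below every flox library, with KO 1 lowest. This gave a log2 fold change of -1.21 with an SE of 0.34 (95% interval -1.96 to -0.46, adjusted p = 0.220 by edgeR; exact two-sided permutation p = 0.0286, the smallest that 35 splits allow). Counts of 50 reads in KO and 92 in flox gave a ratio of 0.428 per unit of library size. Its 95% counting interval of 0.297 to 0.611 covers counting error only and leaves out the spread between libraries.

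Ocstamp had 0.0843, 0.171, 0.150 and 0.341 CPM in KO (4, 8, 7 and 15 reads) and 0.777, 0.553 and 0.321 CPM in flox libraries (39, 27 and 15 reads). KO 4 lay just above flox 3, so the groups overlapped by 1 library. A log2 fold change of -1.56 with an SE of 0.47 resulted (95% interval -2.60 to -0.52, adjusted p = 0.230 by edgeR, exact permutation p = 0.0857). The summed reads, 34 in KO and 81 in flox, gave a ratio of 0.331 (95% counting interval 0.215 to 0.499, again for counting error only). Ocstamp passed the filter on low counts mainly through the flox libraries, so that it is among the tested genes is partly a matter of its flox level. In KO the coefficient of variation over libraries was 36.2% for Dcstamp, where counting error alone would give 28.3%, and 58.8% for Ocstamp, where it would give 34.3%.

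Atp6v0d2 (chr4:19876841-19922605, minus strand), a subunit of the osteoclast proton pump that also takes part in fusion, had 5.95, 11.5, 7.61 and 7.83 CPM in KO and 13.3, 10.2 and 9.66 CPM in flox libraries. KO 2 lay among the flox libraries, and the other KO libraries lay below all of them. With a log2 fold change of -0.43 (SE of 0.21, 95% interval -0.91 to 0.06), the test gave an adjusted p = 0.409 by edgeR and an exact permutation p = 0.143. Leaving out flox 1 gave -0.27, KO 1 -0.30.

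Ctsk (chr3:95499256-95509362, plus strand) encodes cathepsin K, the acid protease that cuts bone collagen. Ctsk had 11.3, 24.4, 22.0 and 17.2 CPM in KO (537, 1146, 1027 and 755 reads) and 54.4, 36.7 and 32.6 CPM in flox libraries (2729, 1791 and 1527 reads). All KO libraries lay below all flox libraries, with KO 1 lowest and flox 1 highest. The mean was 18.7 ± 5.78 CPM in KO and 41.2 ± 11.6 CPM in flox, a KO over flox ratio of 0.454 (95% interval 0.285 to 0.724).

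On the log2 scale the fold change of Ctsk was -1.14 (SE 0.29, 95% interval -1.81 to -0.47). It passed with DESeq2 (log2 fold change -1.12, SE 0.25, adjusted p = 0.0012) but missed the threshold with edgeR (adjusted p = 0.220) and limma-voom (adjusted p = 0.162), and its exact permutation p was 0.0286. Leaving out 1 library at a time gave -1.28 to -0.89, with edgeR adjusted p of 0.145 to 0.386. Counting error was small for Ctsk, 3.40% in KO and 2.23% in flox, against coefficients of variation over libraries of 30.9% in KO and 28.0% in flox.

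Acp5 (chr9:22126727-22135711, minus strand), the tartrate-resistant acid phosphatase used as the classical osteoclast stain and also made by some macrophages, had 86.6, 80.6, 108 and 83.0 CPM in KO and 112, 76.4 and 94.9 CPM in flox libraries. The groups overlapped fully, with flox libraries both highest and lowest. A log2 fold change of -0.08 with an SE of 0.14 (95% interval -0.40 to 0.25, adjusted p = 0.872 by edgeR) turned to 0.062 without flox 1. Acp5 shares 137 exon bases with 6530413G14Rik on the opposite strand, which had 2 to 8 reads per library, against 3648 or more for Acp5.

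Calcr (chr6:3685680-3764714, minus strand), the receptor for the hormone calcitonin that halts resorption and a marker of the mature osteoclast, was at the limit of detection. It had 0, 2, 0 and 1 reads in KO and 4, 3 and 6 reads in flox libraries, was left out by the filter and was not tested. Each flox library had more reads than any KO library. The summed 3 reads in KO and 13 in flox gave a ratio of 0.182 per unit of library size, with a 95% counting interval of 0.0332 to 0.662, which covers counting error only, and the exact permutation p on log2 CPM was 0.0571.

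Across the set, 7 of the 8 tested genes had a negative log2 fold change and 1 a positive one, where 51.9% of all tested genes were negative. Of the 9 genes 3 had every KO library below every flox library (Ctsk, Dcstamp and Calcr), 2 of them among the 8 tested, beside 7.41% of all tested genes (and 6.22% with every KO library above). The median log2 fold change over the 8 was -0.45 and that over all tested genes -0.01. These counts and the median include Ocstamp, which passed the filter on low counts mainly through the flox libraries. The median over the 8 was -0.28 without flox 1 and -0.27 without KO 1. Dcstamp, Ocstamp and Oscar were scarce, and a filter of at least 1 CPM in 3 libraries left 5 of the genes with a median of -0.20.

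**Figure D2:**
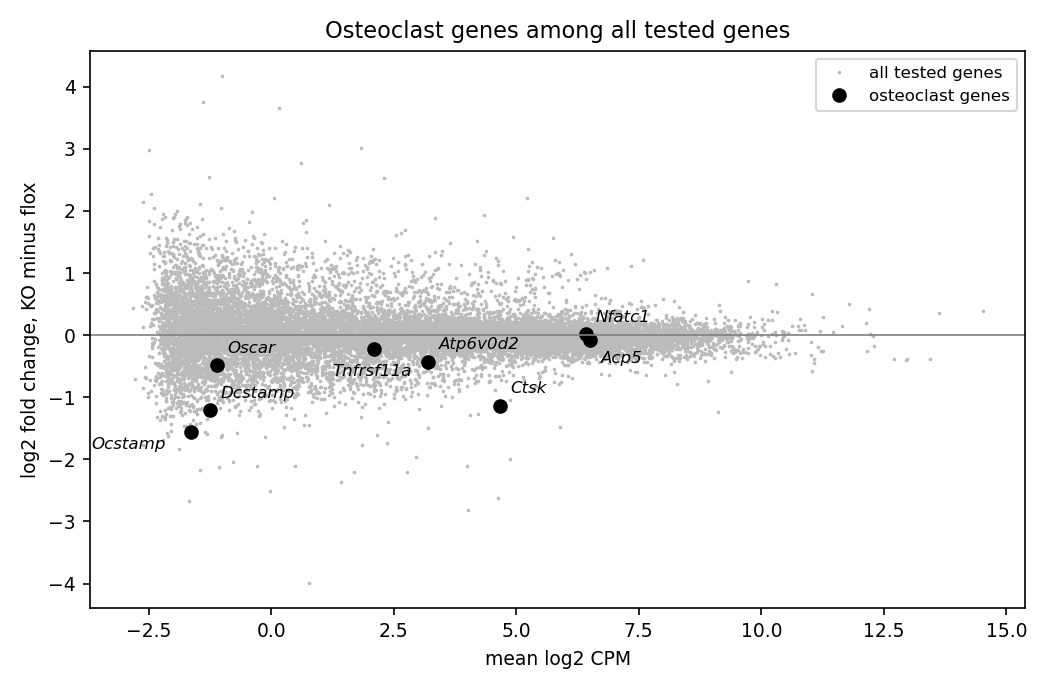
Log2 fold change (KO minus flox) against mean log2 CPM for the 17920 tested genes in grey and the 8 tested osteoclast genes in black. Ctsk lies at -1.14, while Nfatc1 at 0.01 and Acp5 at -0.08 lie near the line of no difference.

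In the ranking of all tested genes by log2 fold change, the lower the earlier, 0.167% lay at or below Ocstamp, 0.463% at or below Dcstamp and 0.642% at or below Ctsk. The share was 7.24% for Oscar, 8.63% for Atp6v0d2, 17.6% for Tnfrsf11a, 35.6% for Acp5 and 54.8% for Nfatc1. The first 3 were therefore in the extreme lower tail. Oscar and Atp6v0d2 lay in between, and Tnfrsf11a, Acp5 and Nfatc1 in the body of the ranking. Ocstamp and Dcstamp are scarce, and fold changes of scarce genes scatter widely, whereas Ctsk had 537 or more reads in every library. Ocstamp also entered the ranking mainly through its flox libraries.

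Across the 7 libraries, flox 1 had the highest value for 6 of the 9 genes and KO 1 the lowest for 6, with Calcr tied at 0 between KO 1 and KO 3. After each tested gene was centred on its own mean, the mean log2 CPM of the 8 was -0.71 in KO 1, -0.19 in KO 2, -0.09 in KO 3 and -0.11 in KO 4, against 0.64 in flox 1, 0.27 in flox 2 and 0.18 in flox 3. These library averages did not overlap between the groups, though taken singly only 2 of the 8 genes were without overlap. The averages were not compared with those of other gene sets. KO 2 to KO 4 lay much closer to flox 2 and flox 3 than KO 1 lay to flox 1.

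**Figure D3:**
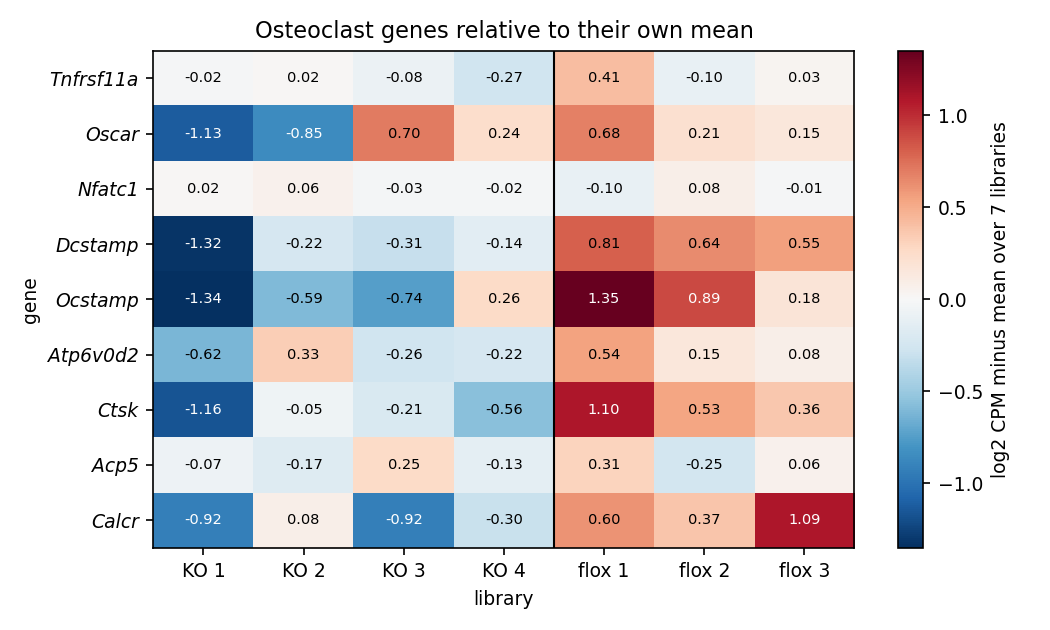
Log2 CPM of each osteoclast gene (rows) in each library (columns) minus the gene's mean over 7 libraries, on a colour scale from blue (low) to red (high). Ctsk, Dcstamp and Ocstamp run from -1.16, -1.32 and -1.34 in KO 1 to 1.10, 0.81 and 1.35 in flox 1, whereas Nfatc1 stays within -0.10 to 0.08.

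The genes fell into like and unlike profiles. As the root mean square difference between 2 centred profiles, in log2 units over 7 libraries, Acp5 and Tnfrsf11a were closest at 0.17, followed by Tnfrsf11a and Nfatc1 at 0.23 and by Ctsk and Dcstamp, also at 0.23. Ocstamp and Nfatc1 were farthest apart at 0.90. These values share libraries and depth and are descriptions. Among 13549 other tested genes whose log2 CPM averaged 0 or more, the 5 closest to the average profile of the 8 were Lhfp (0.08), Gprc5b (0.10), Mapk8ip1 (0.11), C1qtnf6 (0.11) and Ccdc80 (0.12). Each was highest in flox 1, lowest in KO 1 and without overlap between groups. These traits are those of the profile the genes were chosen to match, so they are no separate result. Lhfp had 3.45 ± 0.652 CPM in KO and 5.61 ± 1.29 CPM in flox (log2 fold change -0.70, edgeR adjusted p = 0.223). By edgeR the adjusted p was 0.220 to 0.367 over the 5.

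Ratios of reads inside a library do not depend on its scaling. Chosen after the values were seen and given without a test, Ctsk over Acp5 was 0.131, 0.303, 0.203 and 0.207 in KO and 0.484, 0.481 and 0.344 in flox libraries. Ctsk over Nfatc1 was 0.131, 0.275, 0.263 and 0.205 in KO and 0.682, 0.407 and 0.386 in flox, and Ctsk over Csf1r, the M-CSF receptor of the whole monocyte lineage, was 0.0498, 0.127, 0.122 and 0.0953 in KO and 0.248, 0.188 and 0.156 in flox. In all 3 ratios every KO library lay below every flox library. The 3 share Ctsk, whose CPM already separated the groups, so they are not separate observations. Atp6v0d2 over Acp5, at 0.0687, 0.143, 0.0702 and 0.0943 in KO and 0.119, 0.133 and 0.102 in flox, overlapped.

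Other genes of the pathway, 45 in 4 lists, are set beside these. Of the 44 tested, 33 had a negative and 11 a positive log2 fold change, with a median of -0.13; none passed edgeR's threshold (lowest adjusted p = 0.173), 10 were lower and 3 higher at an unadjusted p under 0.05, beside 14.1% of all tested genes, and 7 lower and 2 higher did not overlap, beside 13.6% of all tested genes in either direction. DESeq2 called 1, Slc9b2, and limma-voom none.

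Among the signals, Tnfsf11, which encodes RANKL, had 0.632, 0.832, 1.18 and 1.34 CPM in KO and 1.12, 1.004 and 1.24 CPM in flox libraries, a full overlap (log2 fold change -0.17 with an SE of 0.28, adjusted p = 0.846 by edgeR). Its decoy receptor gene Tnfrsf11b, with 4 to 9 reads in KO and 3 to 17 in flox libraries, was not tested. Csf1, the M-CSF gene (-0.17, SE 0.17), and Il34, a second ligand of the same receptor (-0.43, SE 0.35), also overlapped. All 3 tested ligands were negative with a median of -0.17, but without flox 1 the median was 0.092 and 1 of the 3 was negative. The M-CSF receptor gene Csf1r differed little, at 180 to 227 CPM in KO and 195 to 219 CPM in flox (log2 fold change -0.09, SE 0.09, edgeR adjusted p = 0.738).

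Of 13 receptor, adaptor and signalling genes 10 were negative and 3 positive (median -0.13), with 3 lower and 1 higher at an unadjusted p under 0.05, beside 14.1% of all tested genes in either direction. Itgb3, the integrin beta-3 chain by which osteoclasts hold to bone and platelets to each other, was at -0.59 (SE 0.18, edgeR adjusted p = 0.244), and Src, the kinase needed for the ruffled border, at -0.62 (SE 0.22). Both had their highest value in flox 1 and overlapped between groups. Trem2, a co-receptor on the precursor, was at -0.41 (SE 0.14) and its groups did not overlap, with 8.26 to 10.4 CPM in KO and 10.6 to 14.9 CPM in flox. Syk, the kinase next in line, was at 0.28 (SE 0.10), with 482 to 557 CPM in KO and 365 to 466 CPM in flox and no overlap.

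The 12 transcription regulators were split, 7 negative and 5 positive (median -0.04), with 1 lower and 2 higher at an unadjusted p under 0.05, beside the same 14.1%. Fos, the AP-1 subunit upstream of Nfatc1 and a general early-response gene, had 371, 368, 224 and 195 CPM in KO and 185, 82.2 and 108 CPM in flox libraries, with a log2 fold change of 1.21 and an SE of 0.38 (adjusted p = 0.267 by edgeR). KO values were above all flox values, with KO 4 just above flox 1. Spi1, which encodes PU.1, was at -0.26 (SE 0.09) with 227 to 258 CPM in KO and 264 to 329 CPM in flox. Nfkb2 and Relb, of the alternative NF-kappa-B arm that RANK activates, were at 0.36 (SE 0.14) and 0.42 (SE 0.21), with overlap.

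Of the 16 resorption machinery genes 13 were negative, with a median of -0.15. At an unadjusted p under 0.05, 6 were lower and 0 higher, beside 8.17% of all tested genes lower, and 5 were lower without overlap, beside 7.41%. Several of the list were far more abundant than Ctsk, with its mean of 18.7 CPM in KO and 41.2 CPM in flox. Mmp9, among the 6, had a mean of 1400 CPM in KO and 1722 CPM in flox. Which marrow cells these reads came from was not tested. Without flox 1 the count was 12 of 16 and the median -0.18. Slc9b2, a sodium/proton exchanger known as a marker of osteoclast differentiation, had 0.485, 1.11, 0.876 and 0.660 CPM in KO and 3.09, 2.23 and 1.22 CPM in flox libraries. KO libraries lay below flox ones, though KO 2 lay close to flox 3. For Slc9b2 the log2 fold change was -1.48 (SE 0.36) with an adjusted p = 0.173 by edgeR, and it passed with DESeq2 (-1.46, SE 0.38, adjusted p = 0.0129). The proton pump subunits Atp6v1b2 (-0.27, SE 0.08) and Atp6v1a (-0.27, SE 0.09) and the creatine kinase Ckb (-0.41, SE 0.12) did not overlap either, with edgeR adjusted p of 0.220 to 0.239.

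**Figure D4:**
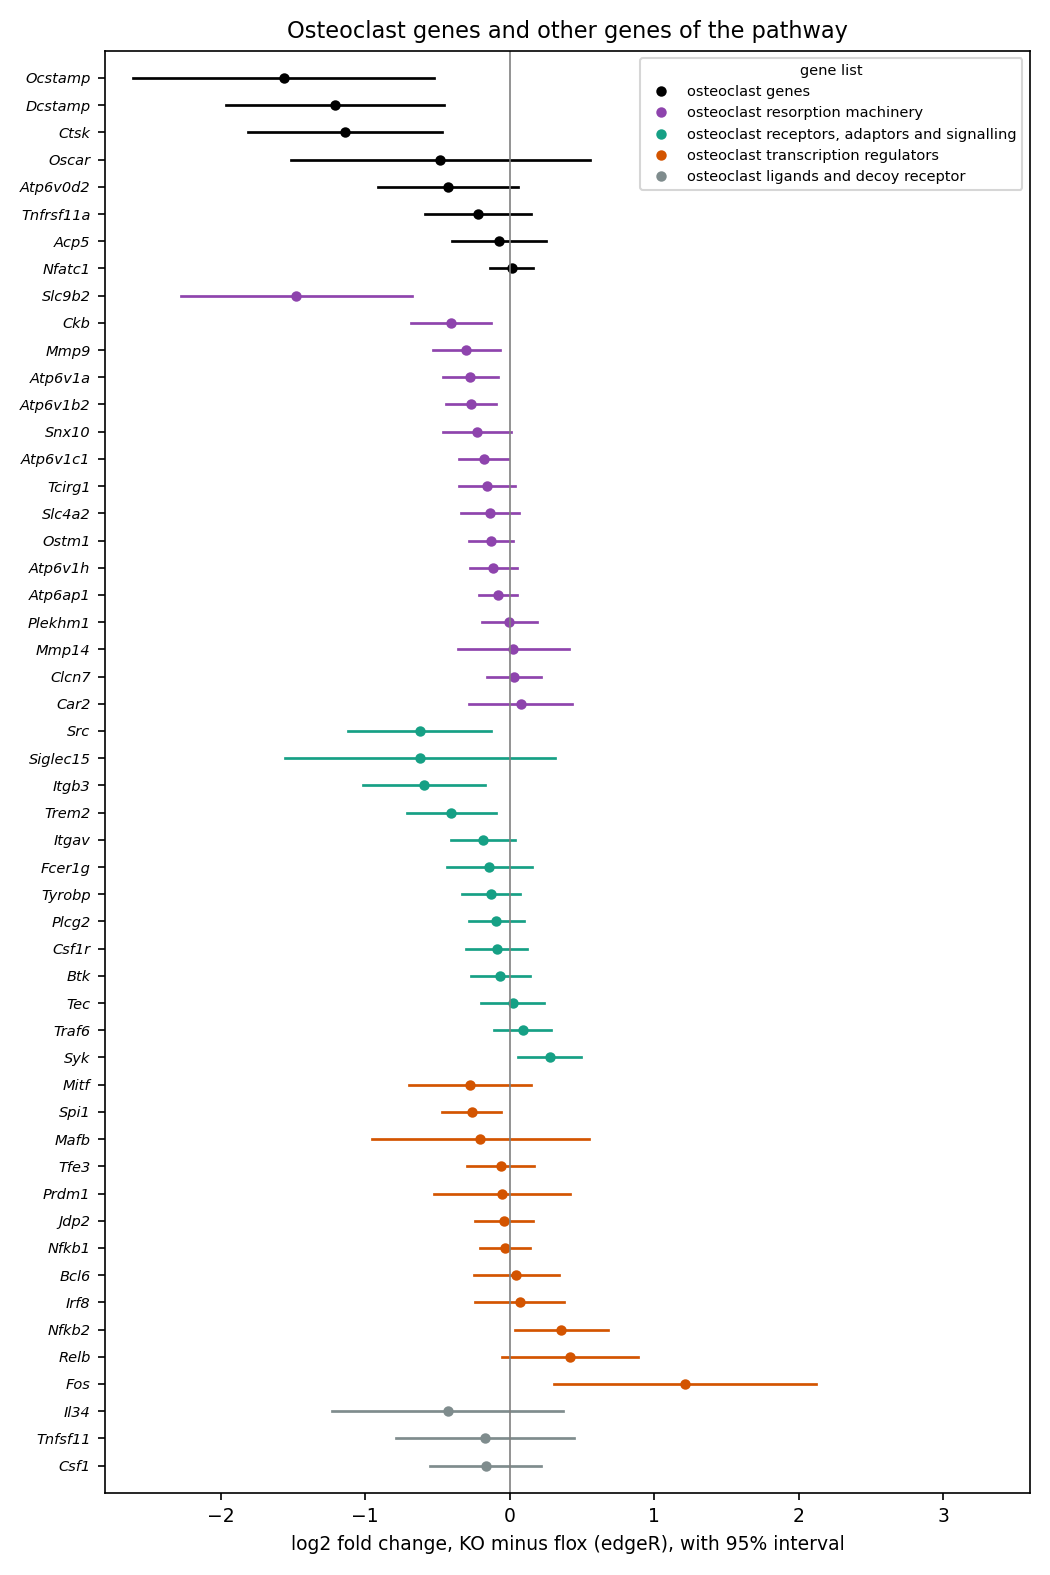
EdgeR log2 fold change (KO minus flox) with its 95% interval for the 8 tested osteoclast genes and the 44 tested genes of 4 other osteoclast lists, coloured by list. Ocstamp, Dcstamp, Ctsk and Slc9b2 lie lowest, between -1.56 and -1.14, and Fos highest at 1.21; most other intervals are centred within 0.5 of 0.

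Markers of other cells in the samples are set beside the osteoclast genes, and their part in the osteoclast values was not tested. Among these lists edgeR called 1 cartilage gene and 10 intestinal epithelial genes, and none in the others, beside 0.145% of all tested genes. The summed CPM of 14 osteoblast and osteocyte genes was 150 to 264 in KO and 277 to 304 in flox libraries, with 12 of 13 tested genes negative and a median of -0.67, or 11 of 13 and -0.62 without flox 1. They included the osteoblast factor Sp7 (-1.22, SE 0.31) and the collagen gene Col1a2 (-0.79, SE 0.21). Also among them were the matrix gene Spp1 (-0.90, SE 0.33), which osteoclasts also make, and the osteocyte gene Dmp1 (-0.92, SE 0.46). Over these genes the edgeR adjusted p was 0.188 to 0.401, and Spp1 and Dmp1 overlapped between groups. Alpl, the 1 positive gene of the list, was at 0.30 (SE 0.21), with overlap. Within KO, KO 4 was highest in this sum, at 264, and in Dcstamp and Ocstamp, while its Ctsk was second lowest. KO 1 was lowest in this sum, at 150, and in Ctsk, Dcstamp and Ocstamp. Cartilage genes summed to 2.24 to 2.80 CPM in KO and 4.57 to 7.61 CPM in flox (3 of 3 tested negative, median -1.34, and -0.49 without flox 1), where the cartilage collagen Col2a1 passed (-1.45, SE 0.21, edgeR adjusted p = 0.0405).

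Of the cells from which osteoclasts arise, 7 of 8 monocyte genes were negative (median -0.20), with sums of 2118 to 2406 CPM in KO and 2464 to 3066 CPM in flox. Itgam stood at -0.37 (SE 0.09) and Ccr2 at -0.48 (SE 0.16). Cd14 went the other way, at 0.27 (SE 0.10), with 11.2 to 12.6 CPM in KO, 9.76 to 10.6 CPM in flox and no overlap. The 12 marrow macrophage genes overlapped fully, at 1061 to 1288 CPM in KO and 837 to 1763 CPM in flox, and 10 were negative with a median of -0.04, against 0 of 12 and 0.32 without flox 1. Reticular stroma, where 7 of 7 genes were negative, summed to 240 to 370 CPM in KO and 335 to 801 CPM in flox (median -0.73, or 6 of 7 and -0.33 without flox 1). Endothelial genes (7 of 8 negative, median -0.62, or 6 of 8 and -0.31 without flox 1) were also lower in the median, at 98.9 to 109 CPM in KO and 94.9 to 142 in flox. So were megakaryocyte genes (8 of 8, median -0.65, or 8 of 8 and -0.36 without flox 1), whose cells also make Itgb3, at 349 to 516 CPM in KO and 460 to 878 in flox. DESeq2 called genes of these lists too, all lower in KO. Its calls were Col1a2 (adjusted p = 0.0104), Col2a1, Itgam of the monocyte list (adjusted p = 0.0418) and the megakaryocyte genes Selp (adjusted p = 0.0042) and Gp1bb (adjusted p = 0.0402).

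Other lists ran the opposite way. B lineage genes (0 of 10 negative, median 1.13, and 0.69 without flox 1) summed to 765 to 958 CPM in KO and 74.2 to 719 CPM in flox, lowest in flox 1. All 10 intestinal epithelial genes, foreign to marrow, rose past the edgeR threshold (median 1.20, 91.5 to 98.8 CPM in KO and 40.4 to 41.9 CPM in flox). Skeletal muscle genes were at 14.7 to 24.5 CPM in KO and 12.95 to 16.3 CPM in flox (6 of 6 tested positive, median 0.40). None of the listed genes was at 0 in every library. The 9 osteoclast genes summed to 195 to 227 CPM in KO and 219 to 268 CPM in flox, with most of that from Acp5 and Nfatc1.

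**Figure D5:**
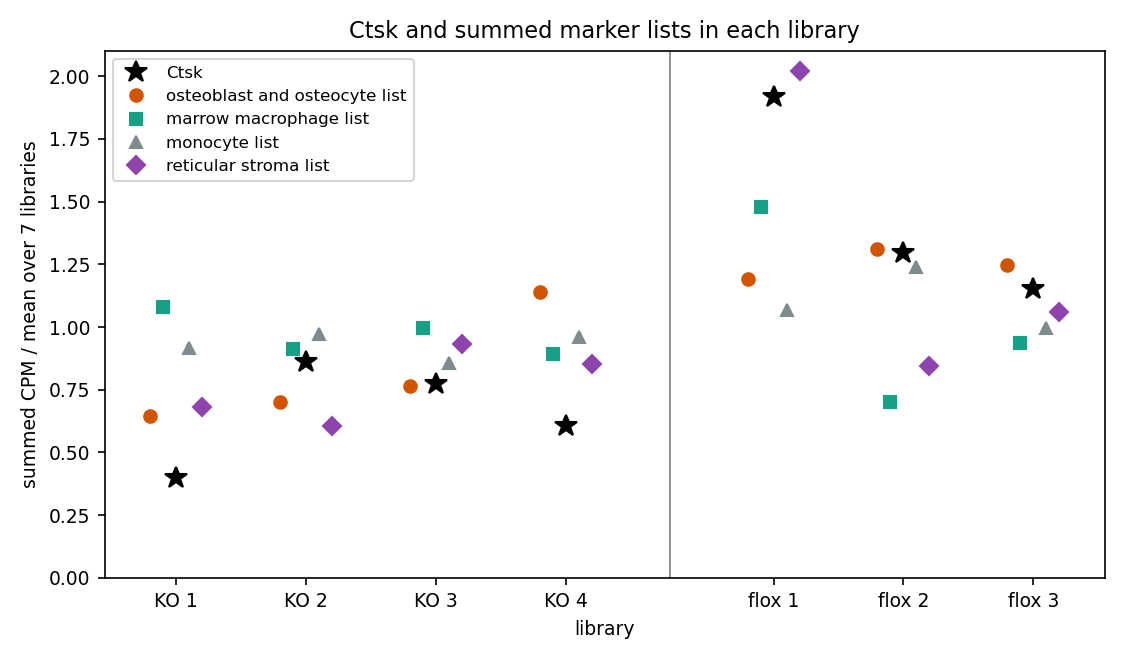
CPM of Ctsk and summed CPM of 4 marker lists in each library, each divided by its mean over the 7 libraries, with KO left of the line and flox right. Ctsk (stars) is below 1 in every KO library and above 1 in every flox library; the reticular stroma list has its peak in flox 1, the osteoblast list is above 1 in KO 4 and in all flox libraries, and the macrophage list does not separate the groups.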

How the data were processed

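RNA was poly(A)-selected, per the labels' protocols. Raw counts per Ensembl gene were deposited by the authors in 1 table. The submitters' processing notes name Trimmomatic 0.36, STAR 2.5.2b, the program featureCounts (Subread 1.5.2) and the build GRCm38. Annotation release, strand setting and handling of multi-mapping reads were not given in the sources used here. Without a known strand setting, reads of Acp5 and of its antisense neighbour cannot be told apart.

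Columns were matched to samples by library code and grouped by the genotype label; 0 columns were unmapped. GENCODE M21 on GRCm38 named 49056 of the 49315 identifiers. Of these genes 30951 had a count in some library. Chi-square per degree of freedom between libraries of a group was 19.0 to 90.6, so no pair was counted as 1 sample.

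Counts were filtered with filterByExpr (minimum count 10), scaled by TMM and fitted with robust glmQLFit and glmQLFTest in edgeR 4.0.16 (R 4.3.3), two-sided, with Benjamini-Hochberg adjustment over 17920 genes at 0.05. The biological coefficient of variation was 16.9%. CPM uses TMM-scaled library sizes, log2 CPM a prior count of 2; standard errors are those implied by the F statistic. Levels between genes are per kilobase of M21 exon. Exact permutation covered 35 splits. Alternatives were DESeq2 1.42.0, limma-voom (limma 3.58.1), other scaling and filters, a non-robust fit, a replicate block, a prior count of 0.5 and leaving out each library. On counts simulated for 17672 genes in this comparison, recovery was 50% at a simulated fold of 1.5, 75.5% at 2, 95.7% at 3 and 97.6% at 4, and 9 of 163 calls were false. These shares pool the simulated changed genes at each fold. They do not give the recovery for the osteoclast genes, several of which were scarce or varied widely between libraries.

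The members and lists were chosen with earlier results of these data known. Genes named are the 9 members, Tnfsf11, Tnfrsf11b, Csf1 and Csf1r, up to 4 genes of lowest p in each other list, and the 5 genes closest to the average profile. Adipoq, Cd79a and 6530413G14Rik were added as checks, and Mmp9 and Alpl for comparison, all after their values were seen.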

Additional observations from a re-analysis of the deposited data

Results flagged for a closer look

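In 1 of the 9 osteoclast genes a single KO library stood far from the other 3. Dcstamp had 0.126 CPM in KO 1 (6 reads) and 0.299 to 0.341 CPM in KO 2 to KO 4, and on the log2 scale the gap to the nearest library was 0.858 of the KO range, above the 95% Dixon limit for 4 samples. Chance alone marks about 1 group in 20, and 9 KO groups were examined. The flox group, with 3 libraries, was too small to examine. Without KO 1 the Dcstamp log2 fold change was -0.97 (edgeR adjusted p = 0.335).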

How the results depend on the processing

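All alternatives kept 0 osteoclast genes called, except DESeq2 with 1 (Ctsk, -1.12). The number lower in KO stayed at 7, apart from 8 without a filter and 4 of 5 under the stricter filter. The median of -0.45 ran from -0.64 to -0.27 as single libraries were left out and was -0.20 under the stricter filter. Over all genes, the 26 calls became 365 with DESeq2, 13 with limma-voom, 16 without robust fitting, 112 without a filter, and 2 to 14 with 1 library left out.

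Directions turned without flox 1 for Acp5 (log2 fold change 0.062, with -0.191 to 0.062 over all libraries left out; mean log2 CPM difference 0.065, range -0.213 to 0.065), Nfatc1 (log2 fold change -0.034, range -0.034 to 0.077; mean difference -0.029, range -0.029 to 0.060), the ligand list (median 0.092) and the macrophage list (0.32), the lists having been examined without flox 1 after the data were seen. Nfatc1 also turned without KO 2 in its mean log2 CPM difference (-0.0035). The Calcr mean log2 difference, -1.20, was -2.19 with a prior count of 0.5.

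Deviations of same-numbered libraries correlated at -0.02, 0.08 and 0.02, so the numbers were not taken as pairs. With the replicate block, 4 genes were called, none of them osteoclast genes, the osteoclast median was -0.60, and Ctsk was at -1.12 (adjusted p = 0.493).

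Depth limits Calcr, Ocstamp, Dcstamp and Oscar, with 0 to 39 reads per library.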
